A study of Mus musculus with 5 samples.

Results

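The collagens outside types II and IV form the bulk of the fibrous and filamentous matrix of connective tissue, and 37 genes encoding them were followed here across 3 mouse kidneys and 2 kidney bud transplants. They were taken as every gene of the deposited gene table whose symbol has the form of a collagen alpha chain (Col, a type number, a, a chain number), leaving out Col2a1 and the 6 type IV chains, and they are 37 of the 24549 genes named on the array. RNA was hybridised to 5 one-colour mouse arrays, 1 array for each tissue. The kidneys were an embryonic kidney (E13.5), a newborn kidney (P0) and the kidney of an 8-week-old mouse, and the transplants were recovered 2 and 4 weeks after kidney buds had been transplanted. All 5 samples are labelled C57BL/6, with no genetic change or drug named for any of them. The cells that made up the buds, the site of transplantation, the animals pooled in a sample and the host's share of the tissue are open, as the sources used here do not give them. With 1 array per tissue no difference has a replicate check, no test was run, and a call means only a difference of at least 2-fold between 2 arrays. Every level is log2 of a probe's signal over the 75th percentile of its array, so levels of the same gene can be set side by side across arrays but levels of different genes cannot. A probe that the scanner software did not mark as well above background is called dim, and a difference with 1 dim array is given as a bound ("at least").

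Collagens are trimers wound into a triple helix. Fibrillar collagens (types I, III, V, XI, XXIV and XXVII) assemble into the cross-banded fibrils that give tissue its tensile strength, and FACITs (types IX, XII, XIV, XVI, XIX, XX and XXII) sit on the surface of such fibrils. Short-chain collagens VIII and X build hexagonal networks, type VI builds beaded microfilaments around cells, membrane collagens (XIII, XVII, XXIII and XXV) span the plasma membrane, and the multiplexins XV and XVIII lie in basement membrane zones. In the kidney the interstitial fibroblasts, pericytes and vessel walls are the main sources of fibrillar and type VI collagen, and their accumulation is what is stained as renal fibrosis.

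The 5 arrays had 60.9% to 69.1% of gene spots well above background, and spots of the same probe differed by a median SD of 0.06 to 0.07 on the log2 scale. Slide 1 held the E13.5 kidney with the 2-week transplant, while the P0 kidney, the 8-week kidney and the 4-week transplant shared slide 2, so in comparisons across slides the slide and the tissue cannot be told apart. Proximal tubule markers rose with kidney age, summing to 0.40 in the E13.5 kidney, 115 in the P0 kidney and 1367 in the 8-week kidney. These sums are in units of the array's 75th percentile. In the 2-week and 4-week transplants they were 11.8 and 5.20. Podocyte markers did not rise with age, at 22.9, 27.4 and 9.96 in the E13.5, P0 and 8-week kidneys and 40.7 and 20.0 in the transplants. Nephron progenitor markers summed to 76.6, 58.2 and 70.9 in the kidneys and 26.3 and 18.4 in the transplants. Of 5 progenitor markers, 4 were lower and 1 higher at 8 weeks than at P0 (21.0% and 23.6% of all genes). Xist was well above background on 4 arrays and dim in the 8-week kidney, and the Y-linked Ddx3y was dim in the P0 kidney alone, so sex differs between these kidneys along with age. All samples are bulk tissue, in which fewer cells of a type and less RNA per cell cannot be told apart.

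Promoter sequence is shown for 4 members whose signal stood above every kidney in both transplants, chosen after their values were seen: the fibrillar chains Col1a2 and Col3a1, which are abundant in fibroblasts, and Col8a1 and Col5a3, which had the widest gap between the transplants and the kidneys among members measured on all 5 arrays. Each is the 250 bases before the RefSeq gene start (GRCm38.p6), read 5′ to 3′ on the gene's own strand: Col1a2 at chr6:4505368-4505617 (plus), Col3a1 at chr1:45311288-45311537 (plus), Col8a1 at chr16:57754738-57754987 (minus) and Col5a3 at chr9:20815068-20815317 (minus). Capitals mark matches, on either strand, to 4 motifs: the CCAAT box, the TATA box TATAAA, the GC box GGGCGG bound by Sp1, and CAGACA, the Smad-binding element of transforming growth factor signalling.
Col1a2: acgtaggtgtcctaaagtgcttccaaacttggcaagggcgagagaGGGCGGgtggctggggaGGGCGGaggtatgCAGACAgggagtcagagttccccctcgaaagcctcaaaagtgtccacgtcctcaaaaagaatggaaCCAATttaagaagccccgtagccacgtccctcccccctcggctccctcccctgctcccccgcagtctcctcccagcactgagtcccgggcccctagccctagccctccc
Col3a1: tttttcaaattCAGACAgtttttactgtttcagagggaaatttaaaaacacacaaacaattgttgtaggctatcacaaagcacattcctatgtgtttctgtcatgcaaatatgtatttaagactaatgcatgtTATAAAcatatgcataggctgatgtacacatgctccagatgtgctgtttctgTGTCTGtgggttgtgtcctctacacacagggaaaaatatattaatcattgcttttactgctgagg
Col8a1: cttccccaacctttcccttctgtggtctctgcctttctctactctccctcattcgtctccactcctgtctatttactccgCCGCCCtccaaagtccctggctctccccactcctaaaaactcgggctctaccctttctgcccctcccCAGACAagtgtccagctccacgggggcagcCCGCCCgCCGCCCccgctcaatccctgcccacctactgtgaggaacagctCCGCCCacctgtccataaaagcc
Col5a3: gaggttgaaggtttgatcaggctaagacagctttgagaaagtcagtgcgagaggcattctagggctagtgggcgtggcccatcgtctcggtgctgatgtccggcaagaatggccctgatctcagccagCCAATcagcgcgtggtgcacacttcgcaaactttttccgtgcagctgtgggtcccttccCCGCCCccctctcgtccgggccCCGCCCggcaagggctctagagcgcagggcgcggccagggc

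Col1a2 held a CCAAT box 109 bases before the start and GGGCGG at 205 and 188 bases, with CAGACA at 175 bases. Col3a1 held TATAAA at 117 bases and CAGACA at 239 and, on the opposite strand, 65 bases. Col8a1 held GGGCGG on the opposite strand at 170, 73, 66 and 23 bases and CAGACA at 103 bases, and Col5a3 held CCAAT at 122 bases with GGGCGG on the opposite strand at 63 and 41 bases. The 4 promoters thus carry different sets of these motifs. RefSeq promoter entries were matched for 30 of the 37 members. Over those 30, CCAAT was found in 10, TATAAA in 5, GGGCGG in 18 and CAGACA in 9, and the shares of all 32851 windows of the same length were 33.8%, 12.4%, 32.7% and 17.1%. Among the 11 matched members at least 2-fold above every kidney in both transplants, the counts were 2, 1, 6 and 4. A member was counted if any of its windows held the motif, while the shares are of single windows. A member with more than 1 window would have more chances of a match, so counts and shares are not measured alike. No matches overlap in these 4 windows, and a match is a description of the letters, not a binding site.

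Of the 37 members, 20 were well above background on all 5 arrays and 16 on 1 to 4 of them, and Col19a1, a FACIT, was dim on every array. The 8-week kidney had the fewest members above background, 21, against 31 in the E13.5 kidney, 32 in the P0 kidney, 34 in the 2-week transplant and 33 in the 4-week transplant. The shares of all gene spots above background were 60.9%, 63.4%, 65.7%, 69.1% and 68.6% in the same order, so the 8-week array was also lowest there. The 2-week transplant had the highest signal for 20 of the 36 measured members, where 13.7% of all measured genes were highest on that array. The 8-week kidney had the lowest signal for 26 of the 36, where 28.5% of all genes were lowest there. For 4 of these (Col9a1, Col6a4, Col13a1 and Col17a1) another array was dim too, so the order is not defined, and without such genes the counts were 22 of 36 members and 25.9% of all genes. The 22 still include Col9a3, dim at 8 weeks, for which the order is not defined either. Its P0 level (-5.62) lay below the lowest level above background of the 8-week array (-5.38). The 16 members that did not follow the first of these patterns were highest in the 4-week transplant (6 members, 15.8% of all genes), the E13.5 kidney (5 members, 30.8%), the P0 kidney (3 members, 7.73%) or the 8-week kidney (2 members, 31.9%). The adult kidney thus had the lowest collagen signal for most members and the transplants the highest. The 16 were 3 each of the fibrillar, FACIT, beaded filament, membrane and anchoring or other members, and 1 multiplexin.

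**Figure D1:**
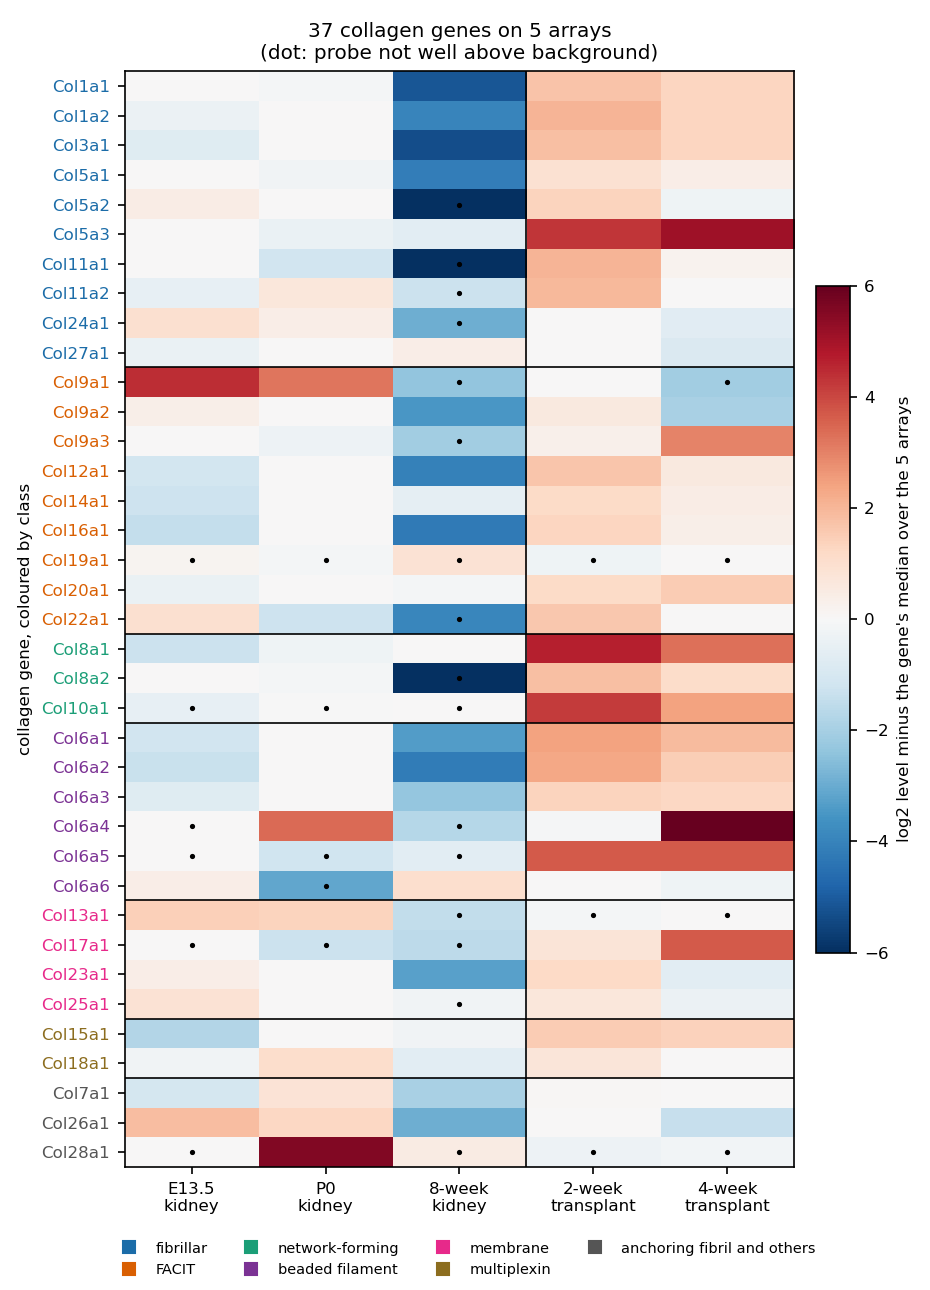
Level of each of the 37 collagens on each of the 5 arrays (columns), as log2 difference from the median of that gene's 5 levels, with genes (rows) ordered and coloured by class and a dot where the probe was dim. Colours end at -6 and 6, and larger differences take the end colour. The column of the 8-week kidney is the lowest for 22 of 36 measured members, leaving out those also dim elsewhere, and that of the 2-week transplant the highest for 20.

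Type I and III collagen, the main fibrils of interstitial connective tissue, were low in the adult kidney and highest in the transplants. Col1a1, which encodes the chain that makes up most of type I collagen, had levels of 4.38 in the E13.5 kidney, 4.29 in the P0 kidney, -0.74 in the 8-week kidney, 6.08 in the 2-week transplant and 5.65 in the 4-week transplant. Col1a2, the other type I chain, stood at 5.60 in the E13.5 kidney, 5.97 in the P0 kidney, 1.99 in the 8-week kidney, 8.02 in the 2-week transplant and 7.28 in the 4-week transplant. Col3a1, the type III chain that forms fine reticular fibrils, stood at 3.83 in the E13.5 kidney, 4.56 in the P0 kidney, -0.76 in the 8-week kidney, 6.36 in the 2-week transplant and 5.87 in the 4-week transplant. The 3 genes gave the same order: the 2-week transplant highest, the 4-week transplant next, and the 8-week kidney lowest by a wide margin. In the 8-week kidney Col3a1 was 40.1-fold, Col1a1 32.7-fold and Col1a2 15.8-fold lower than in the P0 kidney. In the 2-week transplant they were 5.77-fold, 3.24-fold and 5.34-fold higher than in the E13.5 kidney on the same slide. Against the 8-week kidney, also on a shared slide, the 4-week transplant was 98.8-fold, 84.3-fold and 39.1-fold higher in the same order of genes.

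Type V chains, which regulate the diameter of type I fibrils, did not move alike. Col5a1 had levels of 1.41 in the E13.5 kidney, 1.22 in the P0 kidney, -2.73 in the 8-week kidney, 2.33 in the 2-week transplant and 1.79 in the 4-week transplant. Col5a2 had levels of 0.38 in the E13.5 kidney, -0.09 in the P0 kidney, -6.43 in the 8-week kidney (dim), 1.24 in the 2-week transplant and -0.37 in the 4-week transplant. Both were highest in the 2-week transplant and lowest in the adult kidney, where Col5a1 was 15.4-fold and Col5a2 at least 39.2-fold lower than at P0. Col5a2 at 4 weeks lay below the E13.5 and P0 kidneys. At 4 weeks Col5a1 and Col5a2 lay within 2-fold of the P0 kidney (1.49-fold higher and 1.21-fold lower). Col5a3, the third type V chain, stood at -3.12 in the E13.5 kidney, -3.49 in the P0 kidney, -3.73 in the 8-week kidney, 1.16 in the 2-week transplant and 1.95 in the 4-week transplant. Its 3 kidney levels lay close together and its 2 transplant levels far above them, 19.4-fold over the E13.5 kidney at 2 weeks and 43.6-fold over the P0 kidney at 4 weeks. It was also the only fibrillar member with a higher level at 4 weeks than at 2 weeks after transplantation, by 1.73-fold, which is within 2-fold.

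Type XI chains belong to cartilage fibrils but are also made in embryonic mesenchyme. Col11a1 stood at -1.49 in the E13.5 kidney, -2.64 in the P0 kidney, -7.61 in the 8-week kidney (dim), 0.56 in the 2-week transplant and -1.27 in the 4-week transplant. Col11a2 stood at -5.17 in the E13.5 kidney, -4.01 in the P0 kidney, -5.95 in the 8-week kidney (dim), -2.76 in the 2-week transplant and -4.69 in the 4-week transplant. Both peaked in the 2-week transplant, 4.16-fold and 5.32-fold above the E13.5 kidney, and lay 3.57-fold and 3.79-fold lower at 4 weeks. Under a normexp background correction the Col11a2 difference at 2 weeks turned to -1.40 on the log2 scale, so its direction against the E13.5 kidney does not hold there. The background that this correction fitted to the E13.5 array was far from those of the other arrays, and none of the other alternatives reversed the difference. Markers of bone cells stood apart on the same array: all 8 were above background in the 2-week transplant, and Ibsp, a bone matrix protein, was at 0.55 there, at -3.21 in the 4-week transplant and dim in the 3 kidneys. Bone markers summed to 0.36 in the E13.5 kidney, 1.51 at P0, 7.61 in the 2-week transplant and 1.66 in the 4-week transplant, and to 19.8 in the 8-week kidney, where Alpl, also a tubule gene, was at 4.30 while Ibsp, Dmp1 and Sp7 were dim. The part of such cells in the type XI signal was not tested.

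The fibrillar chains XXIV and XXVII went another way. Col24a1, a chain of developing bone and cornea, stood at -2.99 in the E13.5 kidney, -3.52 in the P0 kidney, -6.86 in the 8-week kidney (dim), -3.93 in the 2-week transplant and -4.60 in the 4-week transplant. Col27a1, a chain of cartilage and of embryonic epithelia, stood at -2.16 in the E13.5 kidney, -1.77 in the P0 kidney, -1.35 in the 8-week kidney, -1.77 in the 2-week transplant and -2.63 in the 4-week transplant. Col24a1 was highest in the E13.5 kidney and Col27a1 in the 8-week kidney. Neither was called at least 2-fold higher in a transplant than in a kidney it was set against. For Col24a1 against the 8-week kidney, where it was dim, the bound was under 2-fold and leaves this undecided. Col27a1 was 1 of only 2 members that the 4-week transplant had at least 2-fold below the 8-week kidney (2.43-fold).

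The FACITs split into a group that tracked the fibrils and a group with patterns of its own. Col12a1, which coats type I fibrils in tendon, fascia and other loaded tissue, stood at -1.27 in the E13.5 kidney, -0.18 in the P0 kidney, -4.25 in the 8-week kidney, 1.50 in the 2-week transplant and 0.39 in the 4-week transplant. Col16a1, found on fibrils near smooth muscle and basement membranes, stood at 2.27 in the E13.5 kidney, 3.67 in the P0 kidney, -0.55 in the 8-week kidney, 4.98 in the 2-week transplant and 4.02 in the 4-week transplant. Col14a1, a partner of mature type I fibrils, stood at 0.35 in the E13.5 kidney, 1.61 in the P0 kidney, 1.07 in the 8-week kidney, 2.74 in the 2-week transplant and 2.05 in the 4-week transplant. All 3 were highest in the 2-week transplant, 6.81-fold, 6.56-fold and 5.24-fold above the E13.5 kidney. In the adult kidney they parted: Col16a1 was 18.6-fold and Col12a1 16.8-fold lower than at P0, while Col14a1 was 1.45-fold lower, within the 2-fold limit. Markers of smooth muscle summed to 81.0 and 68.5 in the transplants and 58.6 in the P0 kidney, against 7.75 in the E13.5 kidney and 8.39 in the 8-week kidney, and their part in the Col16a1 signal was not tested.

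Type IX collagen decorates cartilage fibrils, and its 3 chains each had a separate pattern. Col9a1 stood at -0.09 in the E13.5 kidney, -1.29 in the P0 kidney, -6.86 in the 8-week kidney (dim), -4.51 in the 2-week transplant and -6.62 in the 4-week transplant (dim). Col9a2 stood at -0.31 in the E13.5 kidney, -0.65 in the P0 kidney, -4.12 in the 8-week kidney, -0.08 in the 2-week transplant and -2.57 in the 4-week transplant. Col9a3 stood at -5.33 in the E13.5 kidney, -5.62 in the P0 kidney, -7.43 in the 8-week kidney (dim), -5.04 in the 2-week transplant and -2.36 in the 4-week transplant. Col9a1 was highest in the embryonic kidney, and it was 2.31-fold lower at P0, at least 17.0-fold lower again at 8 weeks, and 21.5-fold lower in the 2-week transplant than in the E13.5 kidney. Col9a2 held its level in the 2-week transplant, 1.17-fold above the E13.5 kidney, and was 5.60-fold lower at 4 weeks. Col9a3 was weak in the kidneys and the 2-week transplant and 6.40-fold higher in the 4-week transplant. Col2a1, the type II chain that accompanies type IX in cartilage, was at 2.26 and 1.65 in the E13.5 and P0 kidneys, dim at 8 weeks, and at -1.20 and -3.87 in the 2-week and 4-week transplants. The 8 cartilage markers include Col2a1, and Matn1 and Matn3 were dim on all 5 arrays. The list summed to 5.39, 3.40 and 0.16 in the E13.5, P0 and 8-week kidneys and to 2.94 and 1.99 in the 2-week and 4-week transplants. Col2a1 made up most of the sum in the E13.5 and P0 kidneys but not in the transplants. Of 6 markers compared, 2 were higher and 1 lower in the 2-week transplant than at E13.5 (21.5% and 20.3% of all genes). Of 5 compared, 1 was higher and 2 lower in the 4-week transplant than at P0 (19.2% and 13.9%).

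Of the other FACITs, Col20a1 was highest in the 4-week and Col22a1 in the 2-week transplant. Col20a1 stood at -4.06 in the E13.5 kidney, -3.67 in the P0 kidney, -3.79 in the 8-week kidney, -2.51 in the 2-week transplant and -2.16 in the 4-week transplant, with both transplants above the 3 kidneys, though its 2-week difference from E13.5 turned to -1.11 under normexp correction. Col22a1, a collagen of tissue junctions such as that of muscle and tendon, stood at -2.64 in the E13.5 kidney, -4.89 in the P0 kidney, -7.53 in the 8-week kidney (dim), -1.99 in the 2-week transplant and -3.62 in the 4-week transplant. Col22a1 was 4.74-fold lower at P0 than at E13.5 and 7.44-fold higher in the 2-week transplant than at P0. The E13.5 sample also had 7 of 8 skeletal muscle markers above background (summed signal 4.14, against 0.22 to 1.86 on the other arrays), with Myog, a regulator of muscle differentiation, above background in that sample alone at -1.86. Whether muscle beside the embryonic kidney contributed to Col22a1 was not tested.

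Among the network-forming collagens, type VIII, a matrix protein of vessel walls and of endothelia, gave the largest step between embryonic kidney and transplant of any member. Col8a1 stood at -5.09 in the E13.5 kidney, -4.06 in the P0 kidney, -3.79 in the 8-week kidney, 0.89 in the 2-week transplant and -0.49 in the 4-week transplant. Col8a2 stood at -0.03 in the E13.5 kidney, -0.16 in the P0 kidney, -7.19 in the 8-week kidney (dim), 1.79 in the 2-week transplant and 1.06 in the 4-week transplant. Col8a1 was 62.9-fold higher in the 2-week transplant than in the E13.5 kidney and 11.8-fold higher in the 4-week transplant than at P0. Col8a2 was already above background in the E13.5 and P0 kidneys, was at least 37.3-fold lower at 8 weeks, and was 3.53-fold higher in the 2-week transplant than at E13.5. The chains therefore differed in the kidneys, where Col8a1 was low at all 3 ages, and were alike in being highest at 2 weeks after transplantation. Endothelial markers summed to 8.08, 11.2 and 12.4 in the E13.5, P0 and 8-week kidneys and to 15.6 and 14.5 in the transplants, and their part in the type VIII signal was not tested. Col10a1, the collagen of hypertrophic cartilage, was dim in all 3 kidneys and stood at -3.50 in the 2-week transplant and -5.27 in the 4-week transplant, at least 5.25-fold above the E13.5 kidney at 2 weeks. Its peak lay on the array where all 8 bone markers were above background, and their part in it was not tested.

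Type VI chains form the microfilaments around fibroblasts, muscle and fat cells, and the 3 classical chains were all higher in the transplants. Col6a1 stood at 2.13 in the E13.5 kidney, 3.28 in the P0 kidney, -0.07 in the 8-week kidney, 5.71 in the 2-week transplant and 5.19 in the 4-week transplant. Col6a2 stood at -0.41 in the E13.5 kidney, 0.94 in the P0 kidney, -3.27 in the 8-week kidney, 3.25 in the 2-week transplant and 2.43 in the 4-week transplant. Col6a3 stood at 0.93 in the E13.5 kidney, 1.68 in the P0 kidney, -0.63 in the 8-week kidney, 3.00 in the 2-week transplant and 2.90 in the 4-week transplant. These chains assemble with each other into a shared monomer, and all 3 had the order 2-week transplant, 4-week transplant, P0, E13.5 and 8-week kidney. In the 2-week transplant Col6a2 was 12.7-fold, Col6a1 12.0-fold and Col6a3 4.20-fold above the E13.5 kidney. At 4 weeks Col6a2 was 1.77-fold, Col6a1 1.43-fold and Col6a3 1.07-fold lower than at 2 weeks, all within 2-fold, and they were 52.1-fold, 38.4-fold and 11.5-fold above the 8-week kidney.

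The alternative type VI chains, which can take the place of Col6a3, each had a pattern of their own. Col6a4 stood at -5.78 in the E13.5 kidney (dim), -2.37 in the P0 kidney, -7.51 in the 8-week kidney (dim), -5.84 in the 2-week transplant and 0.75 in the 4-week transplant. Col6a5 stood at -6.67 in the E13.5 kidney (dim), -7.88 in the P0 kidney (dim), -7.29 in the 8-week kidney (dim), -3.00 in the 2-week transplant and -2.99 in the 4-week transplant. Col6a6 stood at -4.68 in the E13.5 kidney, -8.20 in the P0 kidney (dim), -4.08 in the 8-week kidney, -5.09 in the 2-week transplant and -5.34 in the 4-week transplant. Col6a4 had the largest difference between the transplants of any member, 96.7-fold higher at 4 weeks than at 2 weeks, with the P0 kidney next at -2.37. Its 2-week level lay close to that array's lowest level above background (-6.19), so the size of this difference is uncertain. Its other probe was above background in the 4-week transplant alone (-3.40). Col6a5 was dim in every kidney and nearly equal in the transplants, at least 7.42-fold above the E13.5 kidney at 2 weeks. Col6a6 was the only member at least 2-fold higher at 8 weeks than at P0 (at least 3.84-fold), and that single call was absent when the mean over probes or only genes above background on both arrays was used. The 4-week sample also differed from the rest in adrenal cortex markers, which summed to 204 there and to 0.22 to 0.36 on the other arrays, and their part in the Col6a4 and Col9a3 signal was not tested.

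Of the membrane collagens only Col17a1 was at least 2-fold higher in the 4-week transplant than in the P0 kidney. Col13a1, a collagen of cell contacts and nerve-muscle junctions, stood at -4.34 in the E13.5 kidney, -4.43 in the P0 kidney, -7.23 in the 8-week kidney (dim), -5.85 in the 2-week transplant (dim) and -5.75 in the 4-week transplant (dim). Col23a1, found on epithelial cells, stood at -1.13 in the E13.5 kidney, -1.53 in the P0 kidney, -4.81 in the 8-week kidney, -0.35 in the 2-week transplant and -2.16 in the 4-week transplant. Col25a1, a collagen of neurons and of developing muscle, stood at -3.87 in the E13.5 kidney, -4.75 in the P0 kidney, -4.96 in the 8-week kidney (dim), -4.08 in the 2-week transplant and -5.08 in the 4-week transplant. Col13a1 was above background in the E13.5 and P0 kidneys only, and Col25a1 was highest at E13.5. Col23a1 was 9.71-fold lower in the adult than in the P0 kidney, and 2.26-fold higher in the 2-week transplant than at P0. Col17a1, which anchors basal epithelial cells through hemidesmosomes, stood at -6.08 in the E13.5 kidney (dim), -7.34 in the P0 kidney (dim), -7.67 in the 8-week kidney (dim), -5.31 in the 2-week transplant and -2.41 in the 4-week transplant. It was dim in the 3 kidneys, at least 12.2-fold above the P0 kidney at 4 weeks, and 7.46-fold higher at 4 than at 2 weeks. Basal epithelial and urothelial markers were also highest in the 4-week transplant, where their sum was 37.2, against 2.42 to 6.90 on the other arrays, and Krt5, a keratin of basal cells, went from -3.66 at 2 weeks to 3.00 at 4 weeks. From P0 to the 2-week transplant the sum went from 6.90 to 4.55. Of 8 markers 5 were lower and 0 higher (11.8% and 15.4% of all genes), and Col17a1 was at least 1.63-fold higher. From the E13.5 kidney to the 2-week transplant 3 of 7 markers were higher and 0 lower (21.5% and 20.3% of all genes). Col17a1 was at least 1.50-fold higher there. Both bounds are under 2-fold. The part of such epithelium in the Col17a1 signal was not tested.

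The multiplexins of basement membrane zones differed from each other. Col18a1, whose C-terminal fragment is endostatin, stood at 3.35 in the E13.5 kidney, 4.61 in the P0 kidney, 2.92 in the 8-week kidney, 4.27 in the 2-week transplant and 3.54 in the 4-week transplant. Col15a1, a collagen of vessel and muscle basement membranes, stood at -5.29 in the E13.5 kidney, -3.53 in the P0 kidney, -3.75 in the 8-week kidney, -2.03 in the 2-week transplant and -2.14 in the 4-week transplant. Col18a1 was highest in the P0 kidney and covered the smallest range of the pair, with the 2-week transplant 1.89-fold above the E13.5 and 1.27-fold below the P0 kidney. The 4-week transplant was 2.10-fold below the P0 and 1.53-fold above the 8-week kidney. Col15a1 was 9.63-fold higher in the 2-week transplant than at E13.5, a direction that turned under normexp correction (-0.51 on the log2 scale), and 2.84-fold higher than at P0.

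The anchoring fibril collagen and the remaining types were each highest in a kidney. Col7a1, which forms the anchoring fibrils beneath stratified epithelia, stood at -1.70 in the E13.5 kidney, 0.16 in the P0 kidney, -2.60 in the 8-week kidney, -0.59 in the 2-week transplant and -0.66 in the 4-week transplant. Col26a1, a small collagen first described in testis and ovary, stood at 4.95 in the E13.5 kidney, 4.34 in the P0 kidney, 0.17 in the 8-week kidney, 3.12 in the 2-week transplant and 1.71 in the 4-week transplant. Col28a1, a collagen of peripheral nerve, stood at -8.11 in the E13.5 kidney (dim), -2.56 in the P0 kidney, -7.61 in the 8-week kidney (dim), -8.43 in the 2-week transplant (dim) and -8.25 in the 4-week transplant (dim). Col7a1 and Col28a1 were highest at P0. Col26a1 was highest at E13.5 and lower on each of the other arrays, 18.0-fold below P0 in the adult kidney and 3.57-fold below E13.5 in the 2-week transplant. Col7a1 was 2.16-fold higher in the 2-week transplant than at E13.5. Both Col7a1 and Col26a1 were at least 2-fold higher in the 4-week transplant than in the 8-week kidney (22.3% of all genes). Col28a1 was dim in both transplants. Glial markers summed to 27.5 and 41.5 in the transplants and to 4.93 to 11.3 in the kidneys, and their part in the Col28a1 signal was not tested.

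**Figure D2:**
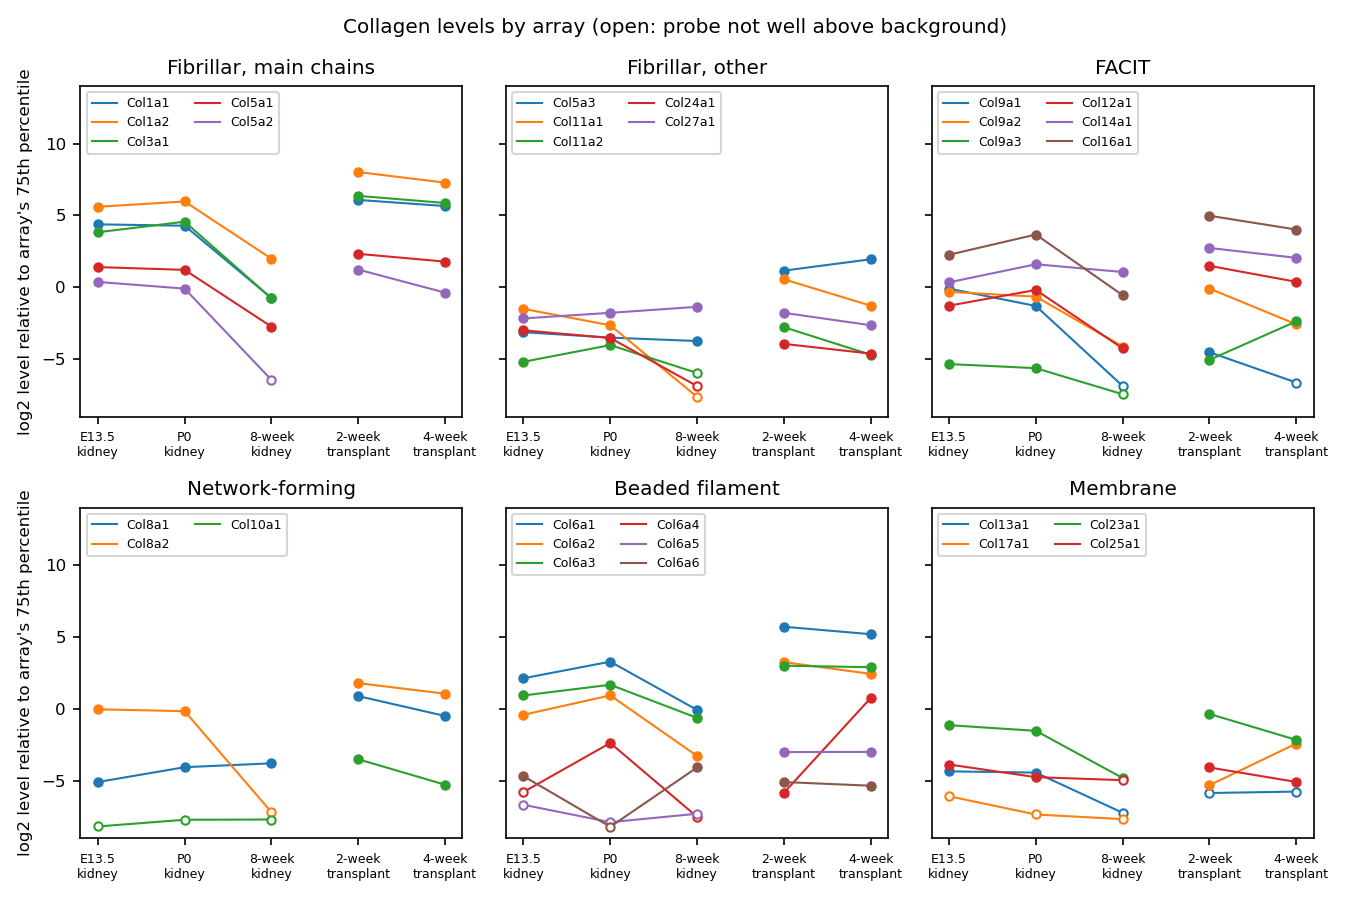
Levels of the members (log2 signal over the array's 75th percentile, vertical axis) on the 5 arrays (horizontal axis), in panels by class, with open symbols where the probe was dim and lines joining the kidneys and joining the transplants. Heights of different genes are not comparable, and Col19a1, Col20a1, Col22a1, the multiplexins and the anchoring and other members are not drawn. Col1a2 runs from 1.99 in the 8-week kidney to 8.02 in the 2-week transplant.

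Counted over the members, the step from the E13.5 to the P0 kidney was the smaller of the kidney steps. Of 33 members compared, 12 were at least 2-fold higher and 4 at least 2-fold lower at P0, with 17 within 2-fold, where 13.9% of all genes were higher and 11.9% lower. At 4-fold, 2 were higher and 1 lower, against 6.23% and 1.83% of all genes. The median difference of the members was 0.37 on the log2 scale against -0.12 over all genes. The higher members were spread over beaded filament chains (3 of 5), FACITs (3 of 8) and both multiplexins, while only 1 of 10 fibrillar chains was higher, and the largest were the bounds for Col6a4 and Col28a1. Col6a4 was at least 10.6-fold and Col28a1 at least 10.1-fold higher, and among members measured in both kidneys Col7a1 (3.63-fold) and Col15a1 (3.39-fold) led, the latter turning to -1.70 on the log2 scale under normexp correction. Under normexp correction, whose fitted background for the E13.5 array was far from those of the other arrays, the counts were 8 higher and 13 lower and the median of the members was -0.33, so these counts do not hold under that background. The medians of FACITs (0.05) and network-forming chains (0.45) also turned there, to -0.74 and -1.06, and that of FACITs was -0.01 after quantile normalization. The arrays also lay on different slides.

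From the P0 to the 8-week kidney, on the same slide, all but 1 of the collagens past the 2-fold limit were lower. Of 33 compared, 22 were lower and 1 was higher, where 21.0% of all genes were lower and 23.6% higher, and at 4-fold 19 were lower and 0 higher (9.35% and 8.93% of all genes). The median of the members was -2.76 against 0.07 for all genes. Fibrillar chains led with 8 of 10 lower and a class median of -3.35, followed by beaded filament chains (4 of 5 lower, -3.01), network-forming chains (1 of 2, -2.48) and FACITs (4 of 8, -2.01). Membrane collagens (1 of 3) and multiplexins (1 of 2) each had a median of -0.95, and all 3 anchoring and other members were lower (-2.82). The membrane, beaded filament and anchoring medians are bounds (Col13a1, Col6a4 and Col28a1), so the order of the classes is uncertain. In the authors' deposited table the medians were -4.72 for anchoring and other, -4.52 for fibrillar and -3.91 for beaded filament members. There FACITs had -3.62, membrane collagens -3.35, network-forming chains -2.86 and multiplexins -1.87. The proximal tubule markers, which summed to 115 at P0 and 1367 at 8 weeks, moved the other way between the same arrays, and their part in the collagen differences was not tested. In the authors' deposited table, which carries no percentile shift, 1 member was higher and 28 were lower, with 14.4% of all genes higher and 35.3% lower.

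The 2-week transplant was set against the E13.5 kidney, which shares its slide. Of 35 members, 19 were higher, 3 were lower and 13 lay within 2-fold, where 21.5% of all genes were higher and 20.3% lower. At the 4-fold limit 15 were higher (11.3% of all genes) and 1 lower (5.41%), and the median of the members was 1.56 against -0.11 over all genes. The class medians were 2.48 for beaded filament, 2.39 for network-forming, 2.09 for multiplexin, 1.88 for fibrillar, 1.11 for FACIT, 0.19 for membrane and -0.36 for the anchoring and other collagens. The network-forming median is the bound for Col10a1, and it was 4.75 in the authors' deposited table. Behind Col8a1 came Col5a3 (19.4-fold), Col6a2 (12.7-fold) and Col6a1 (12.0-fold), and the 3 lower members were Col9a1 (21.5-fold), Col26a1 (3.57-fold) and Col13a1 (at least 2.84-fold). Under normexp correction 15 members were higher and 9 lower, while 9.73% of all genes were higher and 36.0% lower. There the FACIT median turned to -0.32 and the membrane median to -1.23, and the membrane median was also below 0 with the negative control background (-0.04) and after quantile normalization (-0.17).

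Set against the P0 kidney, on the other slide, the 2-week transplant had 22 of 36 members higher and 5 lower, where 15.4% of all genes were higher and 11.8% lower, and the median was 1.21 against -0.07. At 4-fold, 9 were higher and 3 lower (6.85% and 3.37% of all genes). By class 8 of 10 fibrillar chains, 5 of 8 FACITs, 3 of 3 network-forming chains, 4 of 6 beaded filament chains and 1 of 4 membrane collagens were higher. This comparison shares its transplant array with the comparison with E13.5 and its kidney array with those with P0. The largest differences were Col8a1 (30.8-fold), Col5a3 (25.2-fold) and Col11a1 (9.18-fold). Lower in the transplant were Col28a1 (at least 12.3-fold), Col6a4 (11.1-fold), Col9a1 (9.30-fold), Col13a1 (at least 2.67-fold) and Col26a1 (2.33-fold), a set with no type I, III or V chain.

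The 4-week transplant against the P0 kidney, within slide 2, gave fewer higher members: 17 of 36 members were higher and 7 lower, where 19.2% of all genes were higher and 13.9% lower. At 4-fold, 6 were higher and 3 lower (8.65% and 4.36% of all genes), and the median of the members was 0.71 against -0.02. Beaded filament chains had 5 of 6 higher (median 1.70), fibrillar chains 5 of 10 (0.94), network-forming chains 2 of 3 (1.22) and FACITs 3 of 8 (0.50), and the membrane median was -0.48. The multiplexin median of 0.16 was -0.16 in the authors' deposited table. The lower members included Col9a1 (at least 26.0-fold), Col28a1 (at least 10.8-fold), Col26a1 (6.16-fold) and Col9a2 (3.79-fold). With the values of the authors' deposited table, 18 members were higher and 9 lower, as were 18.5% and 19.2% of all genes.

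The 4-week transplant was also set against the 8-week kidney, again within slide 2. Of 33 members 25 were higher and 2 lower, where 22.3% of all genes were higher and 18.6% lower, and at 4-fold 19 were higher and 0 lower (11.7% and 7.80% of all genes). The median of the members was 2.97 where that of all genes was 0.00, and the class medians were 4.77 for fibrillar, 4.39 for beaded filament, 3.29 for network-forming, 2.65 for membrane, 1.76 for FACIT and 1.11 for multiplexin collagens. Col3a1 (98.8-fold), Col8a2 (at least 86.6-fold), Col1a1 (84.3-fold) and Col6a4 (at least 70.3-fold) were furthest apart. The 2 lower members, Col27a1 and Col6a6, were also the 2 whose signal was highest in the adult kidney. For Col6a6 this rests on 1 of its 2 probes: the other was highest in the E13.5 kidney (-4.05) and was dim at 8 weeks (-6.13), with -5.57 in the 4-week transplant. With the values of the authors' deposited table, 29 members were higher and 0 lower, with 31.8% of all genes higher and 13.6% lower.

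**Figure D3:**
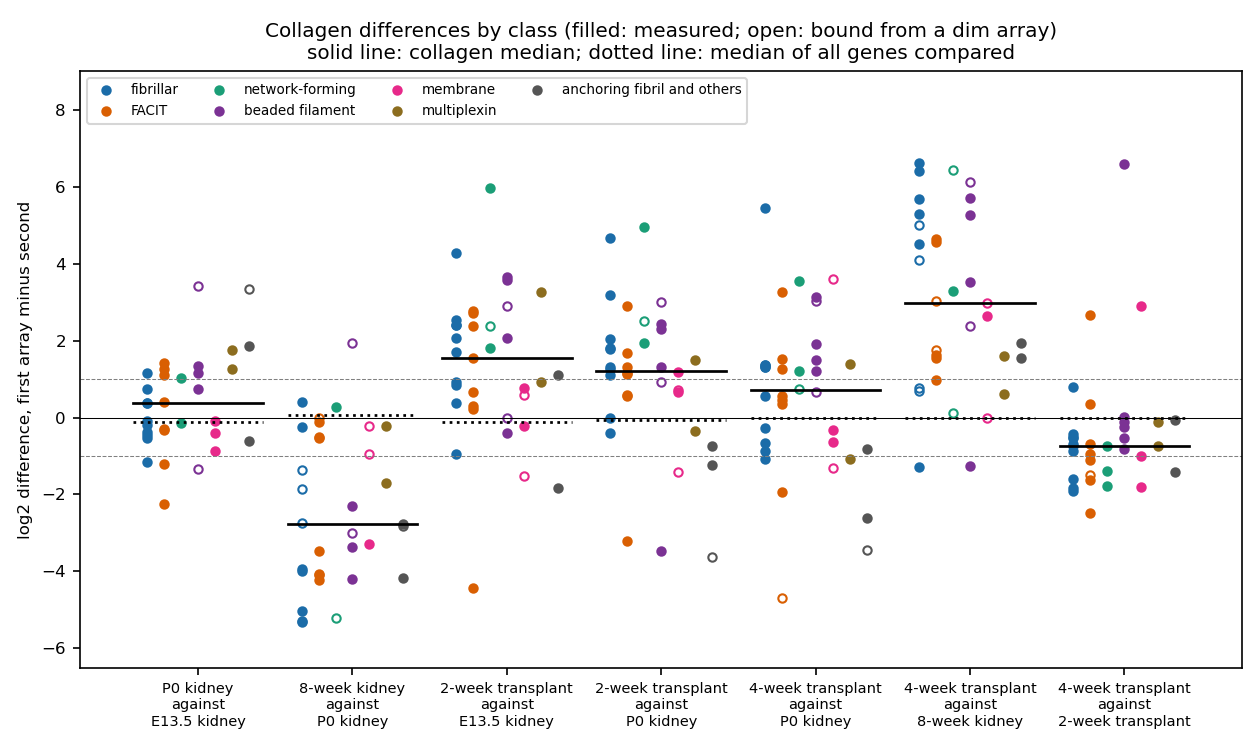
Log2 difference of each member (vertical axis) in each of the 7 comparisons (horizontal axis), with 1 point per gene coloured by class, open where the value is a bound, a solid line at the median of the members, a dotted line at the median of all genes compared and dashed lines at 2-fold. The solid line lies at -2.76 from P0 to 8 weeks and at 2.97 for the 4-week transplant over the 8-week kidney, while the dotted lines stay between -0.12 and 0.07.

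Members were then asked to stand at least 2-fold above all 3 kidneys in both transplants, a contrast in which age and slide vary among the kidneys. This held for 12 of the 33 members above background in both transplants, where 6.16% of all genes met it. With the mean over probes 9 members met it (5.69% of all genes), and under normexp correction 8 (2.30%). Being at least 2-fold below every kidney in both transplants held for 0 of 20 members, where 0.823% of all genes met it, and with 1 array per group no test gives a p for this count. The lower transplant exceeded the highest kidney by 19.4-fold for Col5a3, 9.79-fold for Col8a1, at least 5.19-fold for Col6a5, 3.75-fold for Col6a1 and 2.82-fold for Col6a2. The other 7 lay between 2.12-fold and 2.63-fold: Col15a1, Col1a2, Col3a1, Col1a1, Col6a3, Col20a1 and Col8a2. Col15a1, Col20a1 and Col8a2 met it by the probe standing for the gene, while their other probes fell short of 2-fold. For Col15a1 these gave 0.83 and 0.98 on the log2 scale for the 4-week transplant over P0. The other Col6a5 probe was dim on all 5 arrays. By class they were 4 of 10 fibrillar, 4 of 6 beaded filament, 2 of 3 network-forming, 1 of 2 multiplexin and 1 of 7 FACIT members, with 0 of 3 membrane and 0 of 2 anchoring or other members. Col10a1 and Col17a1, dim in every kidney, were counted as not meeting it, though their bounds leave them undecided. Fibroblast markers on the same arrays summed to 56.7 and 42.5 in the transplants and 18.0 to 28.1 in the kidneys. Against P0, 3 of 7 fibroblast markers were higher at 2 weeks and 2 of 7 at 4 weeks (15.4% and 19.2% of all genes). At both times 0 of the 7 were lower (11.8% and 13.9% of all genes). Macrophage markers summed to 67.3 and 42.7 against 4.05 to 14.6, and those of adipocytes to 212 and 499 against 1.78 to 32.8, with Adipoq dim in the 3 kidneys. The part of these cell types in the collagen differences was not tested.

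From 2 to 4 weeks after transplantation the collagens lay mostly lower, across different slides. Of 34 members 12 were lower and 3 higher, where 5.68% of all genes were lower and 9.09% higher, and the median was -0.73 where that of all genes was near 0. The lower set held 3 of 10 fibrillar chains (Col5a2, Col11a1 and Col11a2), 4 of 8 FACITs, 2 of 3 network-forming chains, 2 of 3 membrane collagens and Col26a1, and 0 of 6 beaded filament chains. Col9a2 (5.60-fold) and Col11a2 (3.79-fold) were furthest down, while the type I and III chains were 1.34-fold to 1.67-fold lower and so within 2-fold. The 3 higher members were Col6a4 (96.7-fold), Col17a1 (7.46-fold) and Col9a3 (6.40-fold), which were also the 3 past 4-fold (2.44% of all genes), while 1 was at least 4-fold lower (1.02%). With the values of the authors' deposited table, 14 members were lower and 3 higher, with 9.29% of all genes lower and 7.98% higher.

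Genes that make, link and degrade collagen were read on the same arrays in 6 lists. Of 20 enzymes and chaperones of collagen modification and folding, 9 were lower and 3 higher in the adult than in the newborn kidney (21.0% and 23.6% of all genes), among them the collagen chaperones Serpinh1 (8.45-fold lower) and Fkbp10 (20.7-fold lower). P3h2, a prolyl 3-hydroxylase of basement membrane collagen, went the other way (3.90-fold higher). In the 2-week transplant 2 of the 20 were higher than at P0 and 0 lower (15.4% and 11.8% of all genes), with a median near 0 whose sign changed between settings. In the 4-week transplant 1 was higher and 2 lower (19.2% and 13.9% of all genes). Thus 18 and 17 of the 20 lay within 2-fold of P0 in the 2-week and 4-week transplants, as did 72.8% and 67.0% of all genes.

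The same shares of all genes apply to the counts of the other lists in these 3 comparisons. Processing and crosslinking genes were lower in 7 and higher in 2 of 12 from P0 to 8 weeks, among them the lysyl oxidases Loxl2 (14.2-fold) and Loxl1 (8.17-fold), while Lox was dim at 8 weeks. In the 2-week transplant 7 of 12 were higher than at P0 and 0 lower, and in the 4-week transplant 4 were higher and 1 lower. Adamts2, which removes the N-propeptide of fibrillar procollagen, was 11.1-fold higher at 2 weeks. Pcolce2, an enhancer of C-propeptide removal, was 5.87-fold higher at 2 weeks and 39.7-fold higher at 4 weeks. Fibril-associated proteins stood out further: 12 of 14 were higher and 0 lower in the 2-week transplant than at P0, with a median of 2.05, and 7 of 14 were higher and 1 lower at 4 weeks (1.14). The small proteoglycans Lum and Fmod, which set fibril spacing, were 60.6-fold and 47.2-fold higher at 2 weeks, and Dpt, a fibril-binding dermal protein, was at least 172-fold higher. From P0 to 8 weeks 8 of 12 were lower and 1 higher, the exception being Tnxb (10.5-fold higher), a tenascin that links fibrils.

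Breakdown genes were also higher in the transplants, with 10 of 12 higher and 0 lower than at P0 at 2 weeks (median 2.67) and 8 higher and 0 lower at 4 weeks (1.70). The collagenase Mmp13 was at least 69.8-fold and the stromelysin Mmp3 at least 53.1-fold higher at 2 weeks, and the inhibitor Timp1 was 12.7-fold higher. In the adult kidney 6 of 11 were lower and 3 higher than at P0, with Timp1 44.0-fold and the gelatinase Mmp2 37.5-fold lower. Of collagen receptors, 4 of 8 were higher and 0 lower at both transplant ages against P0, including the integrin Itga11 (16.2-fold at 2 weeks) and the fibrillar collagen receptor kinase Ddr2 (5.01-fold). Regulators from the transforming growth factor family and the tendon factors had 6 of 10 higher and 1 lower at 2 weeks and 3 higher and 1 lower at 4 weeks, Scx being the lower gene both times. The 3 of 10 regulators higher at 4 weeks and the 2 of 20 folding genes higher at 2 weeks are not far from the shares of all genes (19.2% and 15.4%).

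**Figure D4:**
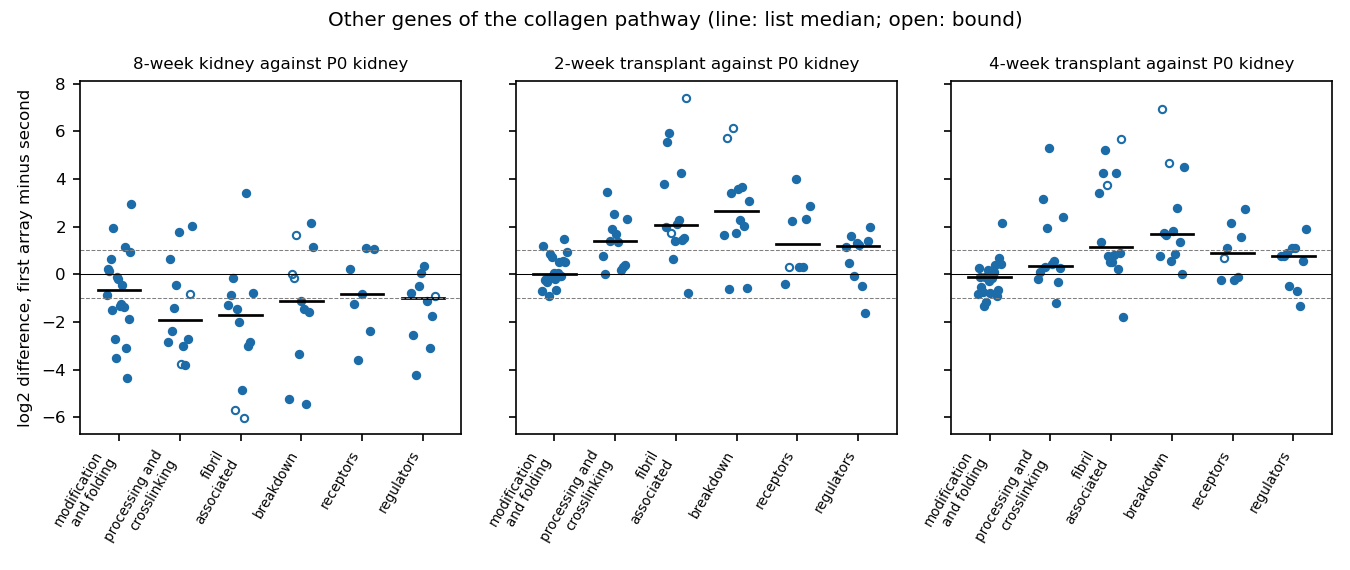
Log2 difference (vertical axis) of each gene of 6 lists that act on collagen (horizontal axis) in 3 comparisons with the P0 kidney (panels), with open points for bounds, a line at the list median and dashed lines at 2-fold. In the 2-week transplant against the P0 kidney 12 of 14 fibril-associated and 10 of 12 breakdown genes were higher, against 2 of 20 modification and folding genes.

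Probes of the same gene mostly gave the same direction, though not always the same call at 2-fold. Of the 37 members 16 had more than 1 probe, 59 probes in all, and in 62 of 64 sets of at least 2 probes in a comparison the signs were the same, with a median spread of 0.28 on the log2 scale. The exceptions were Col20a1 from P0 to 8 weeks (-0.12 and 0.17) and Col25a1 for the 2-week transplant against the E13.5 kidney (-0.70 to 0.09), both differences within 2-fold. Probes dim on both arrays of a comparison, or on 1, are not among these sets, so the 2 Col6a6 probes were not set against each other at 8 weeks.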

How the data were processed

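Cy3-labelled RNA of 5 samples was read on one-colour Agilent mouse arrays, and each sample's title gave its group. Spot intensity in the deposited scanner files had its background subtracted and its spatial trend removed, per the file headers, by Agilent Feature Extraction (version 10.7.3.1 in the submitters' processing notes). Each array has 44397 spots, 43020 of them for genes, and 0 were saturated, while 447 gene spots marked as outliers on an array were left out. Probes numbered 39414, of which 33807 carried a gene name, 31781 of these matched to a RefSeq symbol. The authors' deposited gene table holds log2 values centred per gene. Of its values, 99.6% lay within 0.01 of the centred log2 signal without a percentile shift and 18.2% with one, so it carries no such shift. The columns had medians of 0.05 for E13.5 and -0.08 for the 4-week transplant, and 0 for the other 3 arrays.

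The level was the processed intensity divided by its 75th percentile over the gene spots of that array, as log2. The percentiles were 1619.7, 1720.1, 1170.2, 1713 and 1504 in the order E13.5, P0, 8-week kidney, 2-week and 4-week transplant. Replicate spots were averaged per probe, and each gene was represented by its probe of highest mean level. For a gene dim on 1 of 2 arrays the dim level was replaced by the higher of its own and the array's lowest level well above background, giving a bound, set to 0 where it would turn the direction. A bound under 2-fold was counted as within 2-fold, though the difference itself may be larger. Genes dim on both arrays were not compared. A call was a difference of at least 2-fold, with 4-fold as a second limit, and the percentages beside counts of members are the shares of all genes compared. A list's summed signal adds the relative signals of all its markers on the array, dim ones included. The number of arrays limits the precision, since 1 per group gives no replicate error.

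The members, their classes and all gene lists were chosen with earlier results of these data known. Every member could be named, and from other lists at most 4 genes furthest apart in a comparison or going against their list. Genes named outside these rules (markers, and the members whose promoters are shown) were chosen after their values were seen. Alternatives were normexp background correction (limma 3.58.1, R 4.3.3, offset 50, on the median signal, as the files used here give no mean signal), normexp with negative control spots, the authors' table, quantile normalization, averaging over a gene's probes, and stricter or no filters on dim probes. Differences and calls were computed in Python 3.11.15 (pandas 2.3.3, numpy 2.4.6) and tested on simulated data. No coordinates were taken from the array design, and promoter coordinates are those of RefSeq.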

Additional observations from a re-analysis of the deposited data

How the results depend on the processing

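Among 16 counts of members past a limit, under 7 alternatives each, 101 values lay within 1.5 times the reported count and 11 did not. With normexp correction the members lower at P0 than at E13.5 were 13 in place of 4, and those lower in the 2-week transplant than at E13.5 were 9 in place of 3. The normexp background fitted to the E13.5 array was -992 against 20.7 to 27.5 on the others. All 6 reversed differences came from this setting: Col11a2 (-2.20), Col15a1 (-1.70) and Col8a1 (-2.00) for P0 against E13.5, and Col11a2 (-1.40), Col15a1 (-0.51) and Col20a1 (-1.11) for the 2-week transplant against E13.5. With only genes above background on both arrays the counts were smaller because fewer genes were compared: 14 lower and 0 higher at 8 weeks against P0 (22 and 1 reported), 3 lower in the 2-week transplant against P0 (5) and 4 lower in the 4-week transplant against P0 (7). The mean over probes gave 0 higher at 8 weeks against P0. The members lower in the 4-week transplant than in the 8-week kidney were 2, but 0 in the authors' table and 1 with negative control background, the mean over probes or normexp, and the cause was not tested. Of 154 single calls, 150 stayed past the limit in the same direction with the authors' table, 149 with quantile normalization, 140 with the mean over probes, 138 with negative control background and 127 with normexp. Without a percentile shift the median of all genes moved by -0.53 for 8 weeks against P0 and by 0.36 for the 4-week transplant against the 8-week kidney. Under alternatives chosen after seeing the data, 16 to 22 members were highest in the 2-week transplant (7.53% to 19.3% of all genes) and 20 to 28 lowest in the 8-week kidney (23.2% to 43.0%), dim levels ranked as measured. No paired analysis was possible because each group has 1 array and the labels give no replicate numbers, and leaving out an array would leave its group empty. Array signal over background limits the 16 members dim on 1 to 4 arrays to bounds there.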
